A study of Mus musculus with 8 samples.

Results

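The genes described here are 32 markers of microglia and macrophages, chosen by symbol from a list, among 18193 genes that have an array probe set of their own. They were chosen with earlier results of these data known, so their counts beside the shares of all genes are descriptions. They are represented by 46 probe sets, 9 of the genes by more than 1. Of the 32 genes, 28 passed the filter on dim signals and were tested among 11528 genes. The cultures were set up as oligodendrocyte precursor cells, the dividing cells that give rise to the myelin-forming cells of the brain. The starting tissue was brain hemispheres of 15-day embryos of the ICR strain, dissociated and grown for 5 days in D-MEM with 10% FBS. After passage into serum-free basal medium, 1 set was kept for 48 hr at 31.5 °C and the other for 48 hr at 37 °C, with 4 arrays each. All cultures shared the strain, the medium and the preceding serum phase, and the labels name no sort for a cell type. The number of mice given is 3 per group against 4 arrays, and how arrays relate to mice or dishes is not described. Each error and p therefore measures the spread between these arrays, which may be technical.

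Microglia are the resident macrophages of the brain. They arise outside the neural lineage, from yolk sac precursors that depend on the transcription factor PU.1 (gene Spi1) and on signalling through the colony stimulating factor receptor (Csf1r). They enter the brain before the stage at which these cultures were made, and mixed glial cultures grown in serum are a standard source of them. Microglia make the 3 chains of complement C1q, carry purine, fractalkine and Fc receptors, and take up and digest debris in their lysosomes.

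The markers of the labelled cell type were present: the precursor transcription factor Olig1 averaged 6727 ± 389.7 at 31.5 °C and 6752 ± 646 at 37 °C (scaled signal, SD, n = 4 each), and the growth factor receptor Pdgfra 2469 ± 365 at 31.5 °C and 1798 ± 168 at 37 °C. Of 10 tested precursor genes, 4 fell at 31.5 °C (Gpr17, Matn4, Tnr and Nkx2-2) and 2 rose (Pdgfra and Lhfpl3). The fit was limma with temperature as the only term (adjusted p under 0.05), where 7.83% of all genes fell and 7.67% rose. Microglial and macrophage markers were present in all 8 arrays beside the precursor markers. The summed scaled signal of the 32 genes was 22363, 22276, 31169 and 34468 in replicates 1 to 4 at 31.5 °C, against 27949.6, 25912, 44443 and 44921 at 37 °C, and Lyz2 and Lgals3 gave the brightest probe sets. Without these 2 genes the sums were 12573, 13925, 21437 and 22365 at 31.5 °C, against 15515, 14487, 29461 and 27777 at 37 °C. Of 13 measured markers of other blood cells, 12 were below the filter, among them the T cell genes Cd3d and Cd3e and the neutrophil gene S100a9, and the platelet gene Itga2b was the exception. The deposited arrays differed in brightness, with trimmed means of 132 to 248, and were scaled to a common trimmed mean. In bulk RNA, fewer cells of a type and less RNA per cell cannot be told apart.

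The first comparison asked which markers differed between the temperatures. With temperature as the only term, Fcrls was the 1 of the 28 tested markers that fell at 31.5 °C, and 0 rose. Among all genes tested 15.5% passed (7.83% lower and 7.67% higher, each as a share of the genes tested). At an unadjusted p under 0.05 in the same limma fit, 4 markers were lower (background 15.5%) and 0 higher (background 15.7%). Signals of 1 marker, Fcrls again, did not overlap between the temperatures in the lower direction, where 10.5% of all genes did not, and 0 in the higher direction (background 11.8%). The median log2 difference (31.5 °C minus 37 °C) of the 28 markers was -0.28, against -0.0027 over all genes tested. Among fits that left out 1 array it ran between -0.080 (37 °C replicate 4 left out) and -0.46 (37 °C replicate 2 left out). It was -0.17 without 31.5 °C replicate 1 or 2, -0.42 without 31.5 °C replicate 4 and -0.16 without 37 °C replicate 3. The Fcrls call was lost on leaving out 31.5 °C replicate 1, 2 or 3 or 37 °C replicate 1, 3 or 4 (adjusted p = 0.0516 to 0.108).

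Arrays with the same replicate number resemble each other, so the comparison was also made within the 4 pairs. With the replicate number as a block, 12 of the 28 markers fell at 31.5 °C and Fcgr1 rose, where 15.7% of all genes fell and 14.9% rose (30.7% in all). The 12 were C1qa, C1qb, C1qc, Fcrls, Ctss, Mpeg1, Fcgr3, Lyz2, Laptm5, Ly86, Lgals3 and Olfml3, and each was lower in 4 of 4 pairs. Their differences ran from -1.58 for Fcrls to -0.34 for Laptm5. In total 14 markers were lower in 4 of 4 pairs (background 25.2%) and Fcgr1 and Cd14 were higher in 4 of 4 (background 25.3%), while 22 of 28 had a mean difference below 0 (background 50.4%). The median difference over the 28 markers was -0.26, -0.044, -0.45 and -0.25 in pairs 1 to 4. With 1 pair left out, 9 to 12 markers fell and 1 rose. The shares of all genes were not counted in these smaller fits, so these counts have no background beside them.

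**Figure D1:**
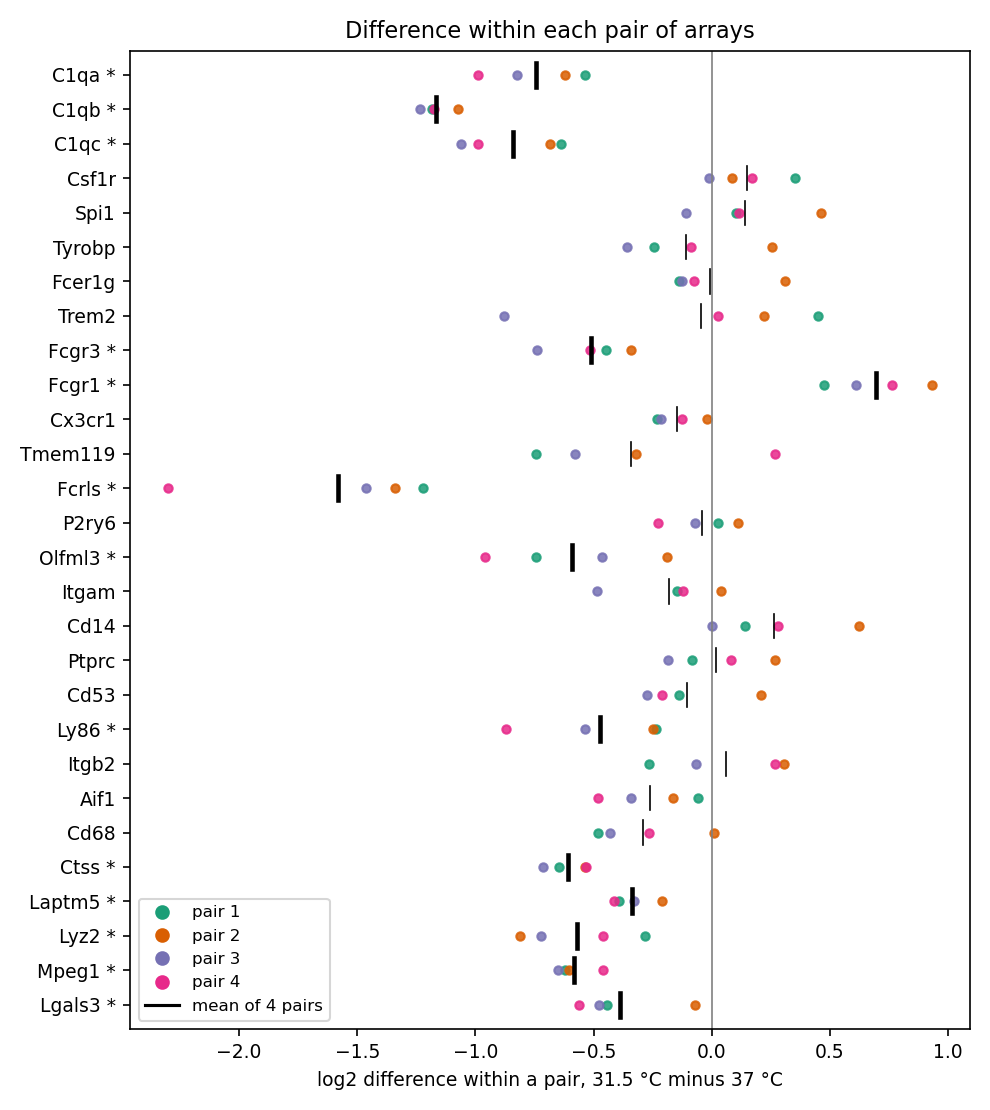
Log2 difference, 31.5 °C minus 37 °C, of each of the 28 tested markers within each of the 4 pairs (points) and the mean of the pairs (bar). Markers called with the replicate block carry an asterisk and a thick bar: 12 lie left of 0 in all 4 pairs, and Fcgr1 lies right of 0 in all 4.

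The standard deviation of the pair levels had a median of 0.489 on the log2 scale over the 28 markers, against 0.139 over all genes tested. The same median was 0.507 for 10 fibroblast and meningeal genes and 0.579 for 2 endothelial genes. For astrocyte, myelin, neuronal and precursor genes it was 0.27, 0.248, 0.208 and 0.169. A large spread between pairs is therefore not particular to these markers. From the lowest to the highest pair the markers spanned a median of 2.0-fold (1.39-fold for Lgals3 to 3.85-fold for Olfml3), against 1.24-fold over all genes. For 19 of the 28, the difference by temperature was smaller than this standard deviation between pairs, as it was for 4798 of 11528 genes tested (41.6%). The median standard error of the temperature difference was 0.301 without the block and 0.0944 with it for the markers, and 0.119 and 0.0812 over all genes.

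The order of the pairs was similar from marker to marker. Levels were highest in pair 4 for 20 markers and in pair 3 for 8, and in pairs 1 and 2 for none of the 28, whereas among all genes tested the shares were 24.6%, 21.9%, 21.8% and 31.7% for pairs 1 to 4. The lowest level lay in pair 2 for 16 markers, in pair 1 for 11 and in pair 3 for 1, Olfml3, against 25.2%, 21.2%, 22.8% and 30.9% of all genes for pairs 1 to 4. In the F test of the replicate number, with temperature in the model, 22 of 28 markers varied between pairs, against 7.89% of all genes tested. At an unadjusted p under 0.05 the count was 27, against 29.9%. The count of 22 changed with the pairs present: 3 markers passed without pair 4, 12 without pair 1, and 18 without pair 2 or without pair 3. With no filter on dim genes, 2 passed. The share of all genes passing was not counted in these fits, so they do not show whether the change is particular to the markers. Across the 8 arrays, each marker correlated with the mean of the other markers at r of 0.49 to 0.98, above 0.7 for 23 of 28. This is a description, since the arrays share pairs and temperatures.

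**Figure D2:**
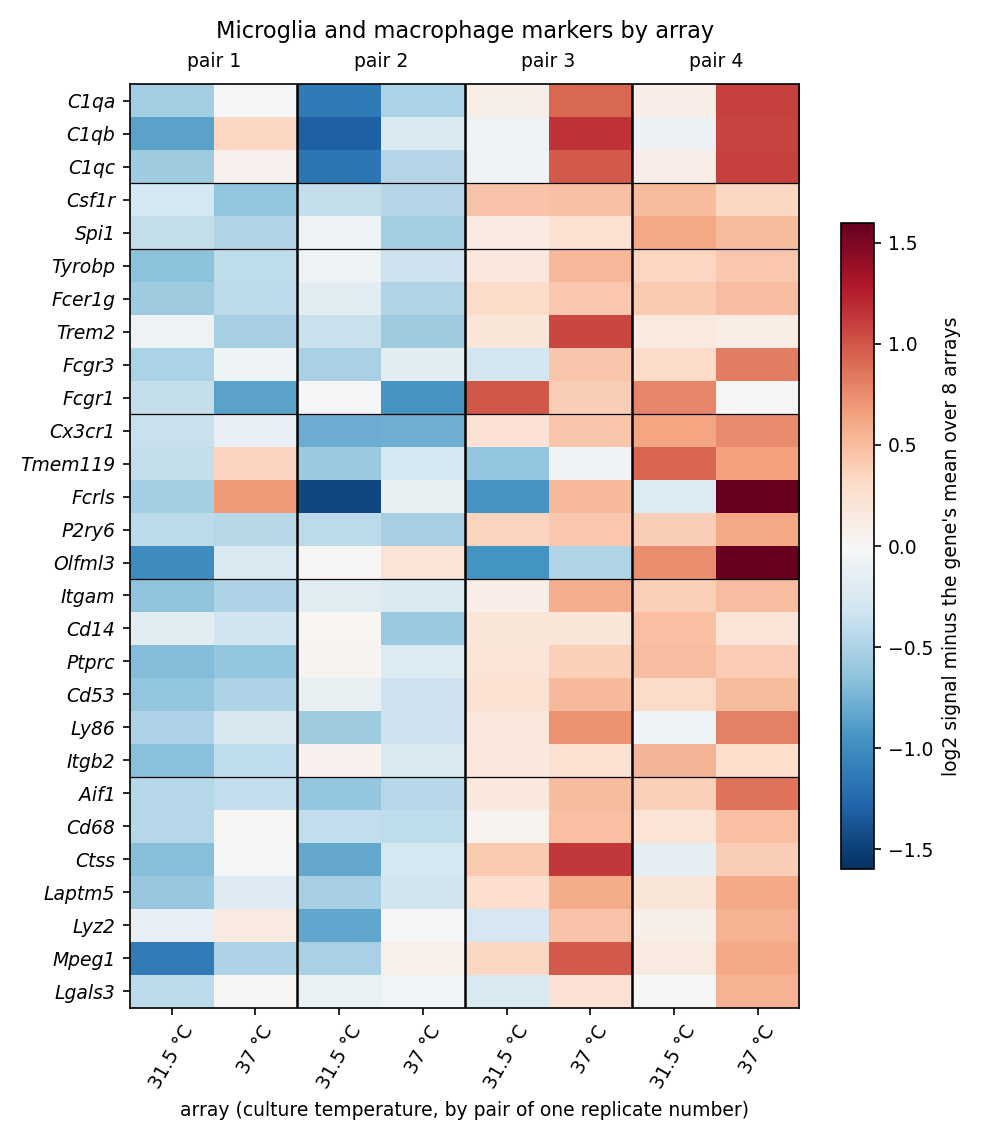
Log2 signal of each tested marker minus its mean over the 8 arrays, with the arrays side by side by pair and the markers grouped by role between horizontal lines. Most markers are below their mean in pairs 1 and 2 and above it in pairs 3 and 4 at both temperatures.

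**Figure D3:**
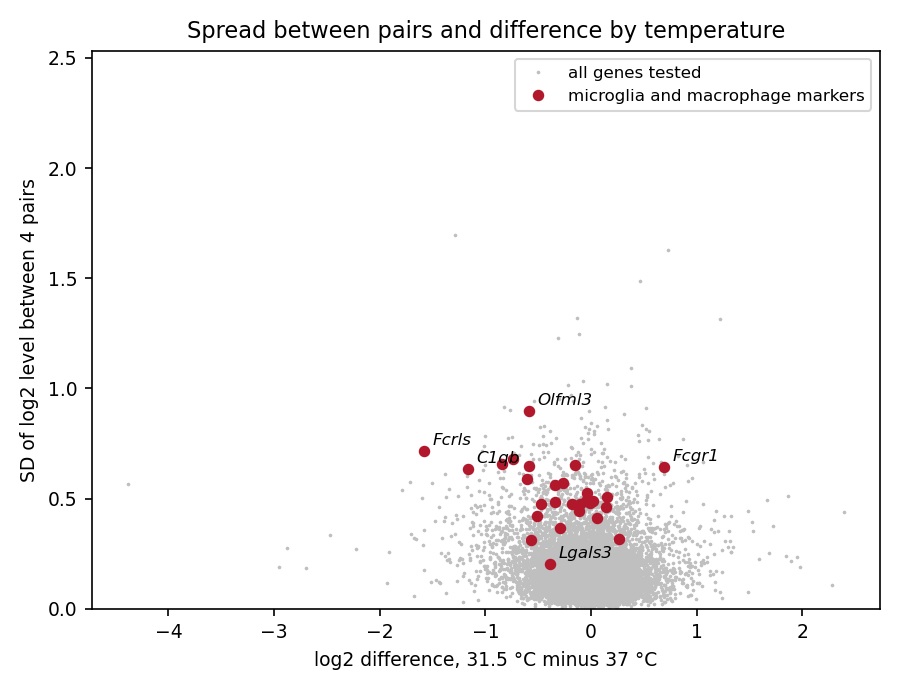
Standard deviation of the log2 level between the 4 pairs (vertical axis) against the log2 difference, 31.5 °C minus 37 °C (horizontal axis), for the 28 tested markers (red) and all 11528 genes tested (grey). The markers have a median spread of 0.489, against 0.139 over all genes and 0.507 over 10 fibroblast and meningeal genes.

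Markers of other cell types were read beside this order of pairs. Of 10 tested oligodendrocyte precursor genes, 6 were highest in pair 4 and 2 in pair 3, and 7 were lowest in pair 1. In the F test 1 of these 10 varied between pairs, against 7.89% of all genes. Astrocyte markers ran differently, with 7 of 11 tested genes highest in pair 1 and 9 lowest in pair 4, and 7 of 8 tested myelin genes were highest in pair 2 and 7 lowest in pair 4. Of 12 tested neuronal genes, 7 were highest in pair 2 and 9 lowest in pair 3. In the F test 4 astrocyte, 0 myelin and 2 neuronal genes varied between pairs (7.89% of all genes). With the block, 6 astrocyte genes fell at 31.5 °C and 1 rose, and 7 myelin genes fell and 0 rose. Neuronal genes gave 4 falls and 3 rises, precursor genes 4 and 2, and fibroblast and meningeal genes 3 and 0. Among all genes 15.7% fell and 14.9% rose with the block. Of 10 fibroblast and meningeal markers, 6 were highest in pair 4 and 5 varied between pairs in the F test. Their summed signal was 6785 to 13224 at 31.5 °C and 7196 to 10909.9 at 37 °C, with pair 4 highest at both temperatures. Of 8 measured endothelial markers 6 were below the filter, including Pecam1 and Cldn5, and both tested ones were highest in pair 4. The dimmest deposited array was replicate 4 at 37 °C, scaled by a factor of 1.6. The part of these other cells and of array brightness in the pair order was not tested.

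Promoters of the markers were searched for the letters of PU.1-type ETS sites, GAGGAA and AGGAAGT, on both strands of the 250 bases before each start. A link between these letters and the order of the pairs was not tested. The 2 motifs share the letters AGGAA and can overlap. Start windows from RefSeq (GRCm38.p6) were matched to 22 of the 32 genes, 24 windows in all. GAGGAA was found in 14 of these 24 windows (58.3%, against 23.3% of all 32851 windows) and AGGAAGT in 8 (33.3%, against 7.69%). Both occurred in 5 windows (20.8%, against 3.67%). These 5 are shown because they hold both motifs, which are in capitals, 5′ to 3′ toward the start. A match is a description of letters, not a mapped binding site.
C1qb promoter (chr4:136886201-136886450, minus strand): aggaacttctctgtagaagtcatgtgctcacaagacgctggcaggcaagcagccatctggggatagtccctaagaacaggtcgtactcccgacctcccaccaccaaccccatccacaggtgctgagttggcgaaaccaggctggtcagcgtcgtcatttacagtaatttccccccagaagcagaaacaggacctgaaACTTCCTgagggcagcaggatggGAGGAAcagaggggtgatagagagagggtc
C1qc promoter (chr4:136892915-136893164, minus strand): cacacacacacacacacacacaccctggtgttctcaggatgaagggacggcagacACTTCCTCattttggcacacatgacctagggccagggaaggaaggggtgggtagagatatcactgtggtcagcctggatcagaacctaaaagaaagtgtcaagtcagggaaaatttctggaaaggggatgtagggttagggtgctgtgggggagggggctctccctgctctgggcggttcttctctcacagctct
Fcrls promoter (chr3:87263525-87263774, minus strand): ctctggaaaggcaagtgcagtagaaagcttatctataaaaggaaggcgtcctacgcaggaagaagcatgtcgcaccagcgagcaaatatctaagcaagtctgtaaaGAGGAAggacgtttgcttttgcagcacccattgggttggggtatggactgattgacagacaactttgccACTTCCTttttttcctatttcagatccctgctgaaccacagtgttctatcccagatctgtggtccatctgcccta
Fcgr1 promoter (chr3:96293970-96294219, minus strand): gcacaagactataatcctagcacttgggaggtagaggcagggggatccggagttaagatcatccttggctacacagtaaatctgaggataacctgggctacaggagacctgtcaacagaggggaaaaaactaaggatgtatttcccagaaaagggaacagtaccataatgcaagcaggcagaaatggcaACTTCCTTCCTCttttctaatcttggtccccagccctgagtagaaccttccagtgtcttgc
Ptprc promoter (chr1:138175306-138175555, minus strand): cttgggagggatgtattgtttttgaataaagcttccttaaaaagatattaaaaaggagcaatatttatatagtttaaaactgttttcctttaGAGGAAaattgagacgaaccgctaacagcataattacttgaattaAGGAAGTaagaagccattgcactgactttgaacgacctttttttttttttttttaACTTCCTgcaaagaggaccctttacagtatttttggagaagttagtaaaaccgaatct
In the C1qc window both motifs lie in 1 run of 8 bases that starts at position -195, counted back from the start. The C1qb window holds them apart, at -53 and -30, and the Ptprc window holds 3 matches.

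The C1q genes encode the A, B and C chains of the molecule that starts the classical complement pathway, and all 3 were lower in 4 of 4 pairs. C1qb (1417063_at) had signals of 335, 244, 574 and 567 at 31.5 °C, against 760.5, 512, 1350.3 and 1279 at 37 °C. Within each pair the 31.5 °C array was the lower one, although the groups overlap, since replicates 3 and 4 at 31.5 °C lie above replicate 2 at 37 °C. C1qb changed by -1.17 ± 0.37 (log2, SE), 2.24-fold lower at 31.5 °C (adjusted p = 0.0665, and 0.00123 with the block). Its differences in pairs 1 to 4 were -1.18, -1.07, -1.24 and -1.18. The other probe sets of the gene gave -0.98 (1434366_x_at) and -1.29 (1437726_x_at), with block adjusted p of 0.0071 and 0.00359 over all probe sets.

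C1qa (1417381_at) had signals of 893, 601, 1408 and 1418 at 31.5 °C, against 1294, 924, 2494 and 2813 at 37 °C. C1qa changed by -0.74 ± 0.40 (adjusted p = 0.248, and 0.00405 with the block). C1qc (1449401_at) had signals of 476, 318, 670.3 and 764 at 31.5 °C, against 741, 511, 1397 and 1513 at 37 °C. It changed by -0.84 ± 0.39 (adjusted p = 0.179, and 0.00317 with the block). In both genes the highest signals were those of replicates 3 and 4 at 37 °C and the lowest was replicate 2 at 31.5 °C. All 3 chains also varied between pairs, by 2.68-fold for C1qa, 2.49-fold for C1qb and 2.67-fold for C1qc (F test, adjusted p = 0.0137, 0.00816 and 0.0144). With the block, the call of each chain held in 12 of 12 other fits, which left out a pair or changed the scaling, floor, filter or probe set rule, with adjusted p of at most 0.0294.

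**Figure D4:**
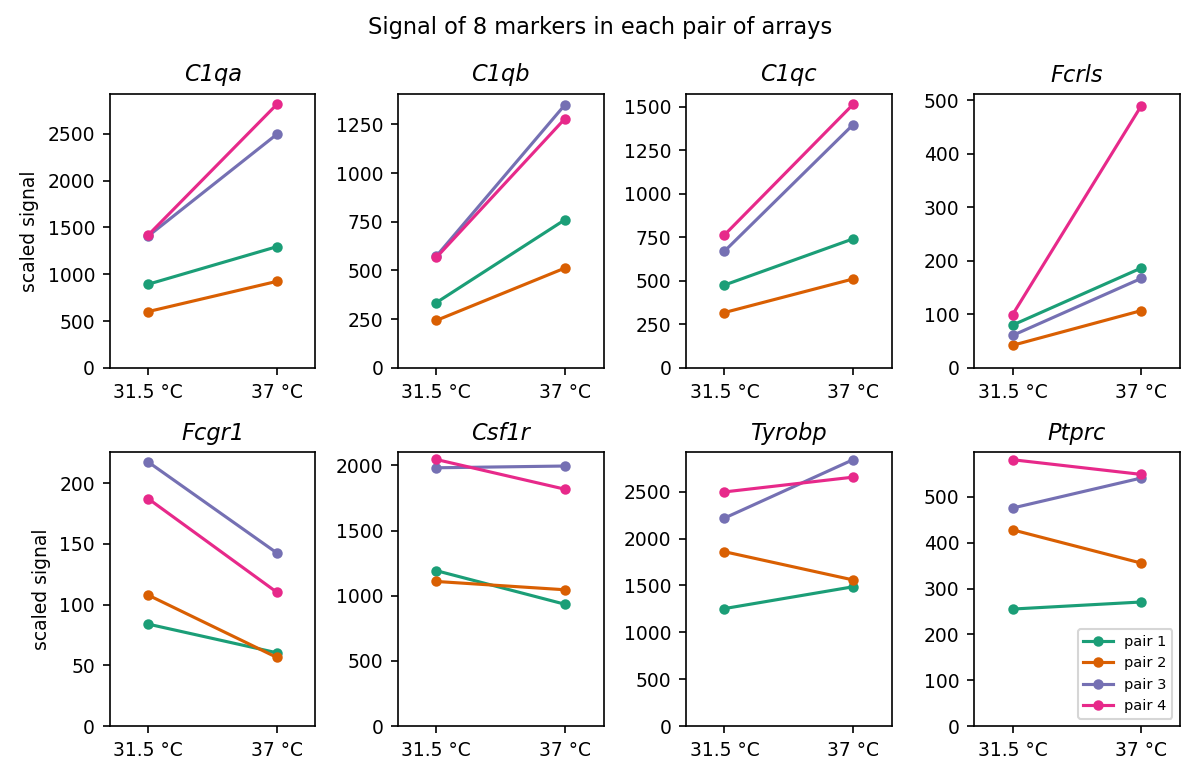
Scaled signal of 8 markers at 31.5 °C (left) and 37 °C (right), with a line for each pair of arrays and axes that start at 0. C1qa, C1qb, C1qc and Fcrls are lower at 31.5 °C in all 4 pairs, Fcgr1 is higher in all 4, and for Csf1r, Tyrobp and Ptprc the lines slope both ways.

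The growth factor receptor gene Csf1r and the transcription factor gene Spi1 did not pass in either fit. Csf1r (1419872_at), on whose signal microglia depend for survival, had signals of 1192, 1109.7, 1981 and 2045 at 31.5 °C, against 935, 1046, 1995 and 1817 at 37 °C. Replicates 3 and 4 were above 1 and 2 at both temperatures, and the temperatures overlap. Csf1r changed by 0.15 ± 0.30 (adjusted p = 0.78, and 0.196 with the block), and its other probe sets gave 0.19 and 0.17. Spi1 (1418747_at), which encodes PU.1, had signals of 209, 258, 299.8 and 419 at 31.5 °C, against 195, 187, 324 and 387 at 37 °C. Spi1 changed by 0.14 ± 0.28 (adjusted p = 0.775, and 0.325 with the block). Both varied between pairs, by 1.88-fold and 1.99-fold (adjusted p = 0.0172 and 0.0307).

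Among immune receptors and their adaptors, the 2 IgG receptor genes of the list went opposite ways within pairs. Fcgr1 (1417876_at), the high-affinity IgG receptor, had signals of 83.9, 108, 217 and 187 at 31.5 °C, against 60.4, 56.5, 142 and 110.2 at 37 °C. Each 31.5 °C array was above the 37 °C array of its pair, and the groups overlap. Its difference was 0.69 ± 0.38 (adjusted p = 0.255), with 0.48, 0.93, 0.61 and 0.76 in pairs 1 to 4, and it rose with the block (adjusted p = 0.00447). That call held in 10 of 11 other block fits and was lost with the mean of its probe sets, where the difference was 0.40 (adjusted p = 0.134). Its dim second probe set (1436625_at), below the filter, averaged 22.7 at 31.5 °C and 22.9 at 37 °C. Fcgr3 (1448620_at), a low-affinity IgG receptor, had signals of 308, 306, 357 and 543 at 31.5 °C, against 419, 388, 596 and 776 at 37 °C. It changed by -0.51 ± 0.26 (adjusted p = 0.213, and 0.00829 with the block), lower in 4 of 4 pairs.

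The adaptors through which such receptors signal did not pass. Tyrobp (1450792_at), the DAP12 adaptor, had signals of 1253, 1859.8, 2218 and 2497 at 31.5 °C, against 1486, 1559, 2841 and 2655 at 37 °C. Fcer1g (1418340_at), the common Fc receptor gamma chain, had signals of 755, 991, 1373 and 1490.1 at 31.5 °C, against 831, 799.9, 1497 and 1568 at 37 °C. In both, replicates 3 and 4 were the high arrays at each temperature. Tyrobp changed by -0.11 ± 0.28 and Fcer1g by -0.007 ± 0.29 (adjusted p = 0.828 and 0.991, and 0.481 and 0.963 with the block). The sign of Fcer1g turns with median scaling (0.082). Trem2 (1421792_s_at), a lipid-sensing receptor that signals through Tyrobp, had signals of 440.3, 364, 529 and 516 at 31.5 °C, against 322, 313, 971 and 506 at 37 °C. Replicate 3 at 37 °C was the highest of the 8 and the other 7 arrays lay between 313 and 529. Trem2 changed by -0.044 ± 0.34 (adjusted p = 0.948), and by 0.30 without that array.

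The group of genes that mark resting microglia held the single call of the fit without the block. Fcrls (1448891_at), an Fc receptor-like gene used as a microglial marker in the brain, had signals of 80.0, 42.2, 60.7 and 99.5 at 31.5 °C, against 187, 107, 167 and 489.7 at 37 °C. The 31.5 °C arrays all lay below the 37 °C arrays, and replicate 4 at 37 °C was the highest. Fcrls fell by 1.58 ± 0.44 on the log2 scale, 2.99-fold (adjusted p = 0.043, and 0.00321 with the block). Its differences were -1.22, -1.34, -1.46 and -2.30 in pairs 1 to 4, and its call held in 11 of 11 other block fits. Without the block, its adjusted p reached 0.118 over the alternatives. Olfml3 (1448475_at), a secreted olfactomedin-family protein, had signals of 28.4, 57.4, 29.3 and 95.1 at 31.5 °C, against 47.6, 65.3, 40.4 and 185 at 37 °C. Replicate 4 was the highest at each temperature. Olfml3 changed by -0.59 ± 0.53 (adjusted p = 0.499, and 0.0202 with the block), a call kept in 7 of 11 other block fits (adjusted p up to 0.0976).

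Cx3cr1 (1450020_at), the receptor of the neuronal chemokine fractalkine, had signals of 265, 196, 399 and 528 at 31.5 °C, against 311, 198, 463 and 577 at 37 °C. Its levels followed the pairs, from 196 and 198 in pair 2 up to 528 and 577 in pair 4, a spread of 2.80-fold (F test, adjusted p = 0.00816). By temperature Cx3cr1 changed by -0.15 ± 0.39 (adjusted p = 0.832, and 0.144 with the block). P2ry6 (1425214_at), the UDP receptor that drives uptake of debris, had signals of 202, 203, 346 and 356 at 31.5 °C, against 198, 188, 364 and 416 at 37 °C. It changed by -0.04 ± 0.31 (adjusted p = 0.95) and varied 1.97-fold between pairs. Tmem119 (1451344_at), a membrane protein of microglia, was dim, with signals of 44.7, 38.5, 37.5 and 111 at 31.5 °C, against 74.8, 48.1, 56.0 and 92.1 at 37 °C. It changed by -0.34 ± 0.36 (adjusted p = 0.56, and 0.161 with the block), lower in 3 of 4 pairs.

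Surface genes shared with other leukocytes gave 1 fall with the block among 6 tested (background 15.7%), and the rest did not pass. Ly86 (1422903_at), the MD-1 partner of a Toll-like receptor homologue, had signals of 198, 187, 314 and 267 at 31.5 °C, against 233, 222, 456 and 488 at 37 °C. Ly86 changed by -0.47 ± 0.30 (adjusted p = 0.319, and 0.0297 with the block), a call kept in 8 of 12 other block fits (adjusted p up to 0.119). Ptprc (1422124_a_at), the CD45 phosphatase of all leukocytes, had signals of 255, 428, 475 and 581 at 31.5 °C, against 271, 355, 541 and 549 at 37 °C. It changed by 0.02 ± 0.30 (adjusted p = 0.976), a sign that turns with the mean of its probe sets or with array weights, and varied 2.15-fold between pairs. The integrin chain genes Itgam and Itgb2, which together form the complement receptor CR3, changed by -0.18 ± 0.29 and 0.061 ± 0.26 (adjusted p = 0.723 and 0.902). Itgam had signals of 112, 152, 187 and 226 at 31.5 °C, against 124, 148, 262 and 246 at 37 °C. Itgb2 had signals of 587, 975, 1051 and 1362 at 31.5 °C, against 706, 788, 1101 and 1129 at 37 °C. For both integrin chains the lowest array was replicate 1 at 31.5 °C, and the temperatures overlap.

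Cd14 (1417268_at), the coreceptor for bacterial lipopolysaccharide, had signals of 978, 1129, 1267 and 1548 at 31.5 °C, against 886, 732, 1264 and 1275 at 37 °C. Each 31.5 °C array was at or above the 37 °C array of its pair, with differences of 0.14, 0.62, 0.003 and 0.28 in pairs 1 to 4. Cd14 changed by 0.26 ± 0.21 (adjusted p = 0.437, and 0.116 with the block). With median scaling and the block it passed as higher, at 0.35 (adjusted p = 0.0361), in 1 of 12 other block fits. The tetraspanin gene Cd53 (1448617_at) had signals of 465, 666, 857 and 891 at 31.5 °C, against 511, 576, 1035 and 1029.9 at 37 °C, and replicates 3 and 4 were again the high arrays. It changed by -0.10 ± 0.29 (adjusted p = 0.846).

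Of the 7 lysosomal, phagocytic and cytoplasmic genes, all had a difference below 0 (background 50.4%) and 5 fell with the block (background 15.7%). Ctss (1448591_at), the lysosomal protease cathepsin S, had signals of 1149, 1045, 2458 and 1667 at 31.5 °C, against 1796, 1518, 4032 and 2411 at 37 °C. Within pairs its differences were -0.65, -0.54, -0.71 and -0.53, and over all arrays -0.61 ± 0.35 (adjusted p = 0.274, and 0.00302 with the block). Mpeg1 (1427076_at), a pore-forming protein of phagocytes, had signals of 649, 976, 1763 and 1549 at 31.5 °C, against 997, 1485, 2771 and 2129.7 at 37 °C. Mpeg1 changed by -0.58 ± 0.38 (adjusted p = 0.339, and 0.00317 with the block). In both genes replicate 3 at 37 °C was the highest array. The block calls of Ctss and Mpeg1 held in 12 of 12 other block fits.

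Lyz2 (1423547_at), the lysozyme of macrophages, had signals of 6088, 3767, 5553 and 7157 at 31.5 °C, against 7401, 6612, 9161 and 9850.2 at 37 °C. Its lowest array was replicate 2 at 31.5 °C and the 3 highest were at 37 °C. Lyz2 changed by -0.57 ± 0.20 (adjusted p = 0.0958, and 0.0109 with the block), a call kept in 11 of 12 other block fits. Lgals3 (1426808_at), a galectin of macrophages, had signals of 3701, 4584, 4178 and 4946 at 31.5 °C, against 5033, 4813, 5821 and 7294 at 37 °C. The temperatures overlap by the 31.5 °C array of replicate 4. Lgals3 changed by -0.39 ± 0.15 (adjusted p = 0.111, and 0.0273 with the block), a call kept in 8 of 12 other block fits, and had the smallest spread between pairs of the 28 markers, 1.39-fold (F test, adjusted p = 0.173).

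Laptm5 (1436905_x_at), a lysosomal membrane protein of blood cells, had signals of 610.0, 640.3, 1119 and 1063 at 31.5 °C, against 802, 742, 1406 and 1416 at 37 °C. Laptm5 changed by -0.34 ± 0.29 (adjusted p = 0.472, and 0.0141 with the block). The block call was kept in 9 of 11 other fits and lost with the mean of probe sets (adjusted p = 0.0745) and without pair 1 (adjusted p = 0.0572). Its probe sets 1417721_s_at and 1426025_s_at gave -0.16 and -0.20 (block adjusted p = 0.105 and 0.0682 over all probe sets), and its others were below the filter. Cd68 (1449164_at), a lysosomal membrane marker of phagocytes, had signals of 853, 894, 1221 and 1362 at 31.5 °C, against 1189, 887, 1646 and 1637 at 37 °C. It changed by -0.29 ± 0.23 (adjusted p = 0.436, and 0.0648 with the block), and passed as lower in 2 of 12 other block fits, with the filter at the 70th percentile (adjusted p = 0.0306) and without pair 2 (adjusted p = 0.0367). Aif1 (1418204_s_at), the Iba1 calcium-binding protein used to stain microglia, had signals of 84.3, 75.3, 129.8 and 151 at 31.5 °C, against 87.8, 84.5, 164 and 211 at 37 °C. It changed by -0.26 ± 0.34 (adjusted p = 0.65, and 0.0658 with the block), and was lower in 4 of 4 pairs. Aif1 followed the mean of the other markers over the 8 arrays most closely of the 28, at r = 0.98.

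The 4 markers below the filter had signals of 1.11 to 42.3 in all arrays, beside a floor of 9.80 to which lower values were raised. P2ry12, the ADP receptor that guides microglial processes, had signals of 35.9, 25.7, 42.3 and 35.8 at 31.5 °C, against 21.6, 18.4, 34.6 and 24.8 at 37 °C. Each 31.5 °C array was above the 37 °C array of its pair, and the temperatures overlap. With no filter, the block fit gave P2ry12 a difference of 0.51, higher at 31.5 °C (adjusted p = 0.0431). The lysophospholipid receptor gene Gpr34 ranged over 4.67 to 17.6 at 31.5 °C and 7.04 to 25.2 at 37 °C. Siglech, a sialic acid-binding receptor, ranged over 1.11 to 4.05 at 31.5 °C and 1.66 to 13.5 at 37 °C, at or under the floor in 6 of 8 arrays. Cd86, a costimulatory protein of activated antigen-presenting cells, ranged over 20.3 to 32.1 at 31.5 °C and 9.34 to 23.5 at 37 °C with its brighter probe set. No detection calls came with the values, so presence or absence is not stated for these genes.

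Further genes of macrophages and of the pathways around these markers were read from 7 further lists. Among all genes tested, 7.83% fell and 7.67% rose, and with the block 15.7% fell and 14.9% rose. A count near these shares is not read as a result about its list. Of 24 tested surface and oxidase genes of microglia and macrophages, 2 fell and 0 rose, and with the block 7 fell and 2 rose (median -0.14). The immunoglobulin-family surface gene Cd48 fell to 43.8 ± 3.23 at 31.5 °C, against 93.0 ± 13.5 at 37 °C (-1.07 ± 0.12, adjusted p = 0.00197). The inhibitory receptor gene Cd300a changed by -0.68 ± 0.17 (adjusted p = 0.0287), and Alox5ap, a partner of 5-lipoxygenase in leukotriene synthesis, by -0.66 ± 0.25 (adjusted p = 0.105, and 0.0171 with the block). Cd48 and Cd300a spanned 1.25-fold and 1.45-fold between pairs (F test, adjusted p = 0.361 and 0.141), against a median of 2.0-fold for the markers. In this list 14 of 24 genes varied between pairs (7.89% of all genes), and 23 were highest in pairs 3 or 4 (21.8% and 31.7% of all genes).

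For the lists of this paragraph too, the shares of all genes were 7.83% lower and 7.67% higher, and 15.7% and 14.9% with the block. Among 7 tested genes of border and perivascular macrophages, 2 fell and 0 rose, and with the block 3 fell and 1 rose. Folr2, a folate receptor of these cells, averaged 54.6 ± 12.8 at 31.5 °C and 105 ± 14.7 at 37 °C (-0.96 ± 0.17, adjusted p = 0.00857), and the scavenger receptor gene Stab1 59.1 ± 20.9 at 31.5 °C and 142 ± 46.1 at 37 °C (-1.27 ± 0.30, adjusted p = 0.0247). Between pairs Folr2 spanned 1.42-fold and Stab1 2.05-fold (F test, adjusted p = 0.186 and 0.155). The chemokine gene Pf4 averaged 107 ± 17.5 at 31.5 °C and 62.4 ± 28.3 at 37 °C (0.87 ± 0.29, adjusted p = 0.075, and 0.0112 with the block). Cd163, F13a1, Lyve1 and Cbr2 of this list were below the filter. Of 15 tested genes of activated microglia, 1 fell and 1 rose, and with the block 6 fell and 1 rose (median -0.11). Gpnmb, a transmembrane glycoprotein that pigment cells also make, averaged 1219 ± 539 at 31.5 °C and 3208 ± 494 at 37 °C (-1.48 ± 0.27, adjusted p = 0.00941). The chemokine gene Ccl3 rose to 867 ± 240.1 at 31.5 °C, against 403 ± 75.1 at 37 °C (1.07 ± 0.23, adjusted p = 0.0174). Between pairs Gpnmb spanned 1.93-fold and Ccl3 1.68-fold (F test, adjusted p = 0.0973 and 0.218). Cd83, an activation marker of myeloid cells, changed by -0.97 ± 0.31 (adjusted p = 0.0683, and 0.00251 with the block).

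Of 21 tested genes of leukocyte signalling and the cytoskeleton, 1 fell and 0 rose, and with the block 4 fell and 3 rose, at a median of 0.17. The shares of all genes were 7.83% lower and 7.67% higher, and 15.7% and 14.9% with the block. Myo1f, an unconventional myosin, averaged 78.7 ± 10.5 at 31.5 °C and 141 ± 12.4 at 37 °C (-0.85 ± 0.12, adjusted p = 0.00405). It spanned 1.15-fold between pairs (F test, adjusted p = 0.664). Nckap1l, a subunit of the actin-regulating WAVE complex, changed by -0.52 ± 0.33 (adjusted p = 0.319, and 0.0101 with the block), and the phosphatase gene Ptpn18 by 0.54 ± 0.34 (adjusted p = 0.32, and 0.00907 with the block). Here 12 of 21 genes varied between pairs (7.89% of all genes) and 18 were highest in pair 4 (31.7% of all genes). Of 8 tested transcription factor genes 1 fell, Maf (-0.57 ± 0.15, adjusted p = 0.0335), and 0 rose. Maf spanned 1.41-fold between pairs (F test, adjusted p = 0.127). Neither Irf8, a partner of PU.1 (-0.11 ± 0.28, adjusted p = 0.825), nor Sall1, which other cells of the developing brain also express (-0.20 ± 0.099, adjusted p = 0.197), passed.

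Ligands of the marker receptors were read last. The fractalkine gene Cx3cl1, made by neurons, rose to 436 ± 52.1 at 31.5 °C, against 242 ± 31.9 at 37 °C (0.85 ± 0.12, adjusted p = 0.00465). Csf1, a ligand of Csf1r, averaged 606 ± 57.6 at 31.5 °C and 576 ± 42.8 at 37 °C (0.072 ± 0.097, adjusted p = 0.662), and Il34, the other ligand, was below the filter. Cd200, a neuronal brake on microglia, changed by -0.28 ± 0.20 (adjusted p = 0.374, and 0.0421 with the block). In all, 1 of 6 tested ligand genes rose and 0 fell (background 7.67% and 7.83%). With the block 1 rose and 1 fell (background 14.9% and 15.7%). The 3 tested genes of the classical complement list, C3ar1, C5ar1 and Serping1, did not pass in either fit, and C1ra, C1s1, C2 and Cd55 were below the filter.

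Outside the 32 genes, the 10 whose levels over the 8 arrays were most like the mean standardised level of the tested markers had r of 0.97 to 0.98 (Pearson). They were Capg, Fcgrt, Ocel1, G530011O06Rik, Unc93b1, Ncf1, Cyba, Dok4, Sipa1 and Anxa4. Cyba and Ncf1 encode parts of the NADPH oxidase of phagocytes, Unc93b1 a carrier of Toll-like receptors, Fcgrt the neonatal Fc receptor and Capg an actin-capping protein. Fcgrt had signals of 88.3, 95.8, 130.4 and 153 at 31.5 °C, against 114, 99.4, 173 and 228 at 37 °C. None of the 10 passed between temperatures without the block (limma, adjusted p from 0.369 to 0.874), where 15.5% of all genes passed. Fcgrt, Ocel1 and Cyba were lower with the block (adjusted p = 0.037, 0.0126 and 0.0421), where 15.7% of all genes fell. The 10 were chosen for their high r, so r is a description and no separate result.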

How the data were processed

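Total RNA of 8 samples was read on Affymetrix mouse arrays, 1 array each. The authors deposited linear probe set intensity values made with MAS5, per the submitters' processing notes, which give no version or scaling target. Of 45101 probe sets, 64 controls were left out, 34945 carried 1 gene symbol in the platform annotation, 932 several and 9160 none, and only those with 1 symbol name a gene. Arrays were brought to a common 2% trimmed mean (factors 0.848 to 1.6). Signals below 9.80, the 25th percentile, were set to that floor before log2. A gene was read from its brightest probe set on average, which gave 18193 genes, and testing covered the 11528 whose mean reached 38.3, the median over probe sets.

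The difference 31.5 °C minus 37 °C was fitted with limma 3.58.1 in R 4.3.3 (lmFit, eBayes, two-sided, Benjamini-Hochberg over all genes tested, threshold 0.05), with temperature as the only term and, beside it, with the replicate number as a block. The numbers were used to pair the arrays. Deviations from the group means correlated at 0.54, 0.43, 0.488 and 0.61 within pairs 1 to 4, and at -0.411 to 0.0452 between arrays of different numbers. A gene's deviations cancel out within a group, so positive values within pairs push those between different numbers down. The latter are therefore no separate check. Variation between pairs was tested with the F test of the replicate number in a model with temperature. The pairing comes from the numbers in the sample titles and the correlations within pairs. No batch other than the replicate number is given. The number of arrays limits the precision. At most 0.708% of values were identical between any 2 arrays.

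The rule for named genes took all 32 markers, up to 3 genes that passed either fit in each further list, and the 10 genes most like the markers' mean profile. The genes of further lists were ranked by their p without the block. That fit counts spread between pairs as error, so the ranking favours genes with little of it. Other genes are named as examples of their lists. The markers and lists were chosen with earlier results of these data known. Alternative settings changed the scaling (quantile, median), the floor (50th percentile, or none and a pseudocount of 1), the filter (70th percentile, or none) and the choice of probe sets (their mean, or none of the _x_at and _s_at kind). Others used limma's intensity trend or array weights, or unadjusted p, or omitted single arrays or pairs. All probe sets tested singly (22519), and the block under each processing, were added after the data were seen. The procedure was tested on simulated data. Plots used Python 3.11.15 and matplotlib 3.10.9.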

Additional observations from a re-analysis of the deposited data

Results flagged for a closer look

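Of 56 sets of 4 arrays, the 28 tested markers at each temperature, 1 held an array that stood apart by Dixon's ratio of gap to range at 95%, and chance flags about 1 in 20. Tmem119 in replicate 4 at 31.5 °C, at 111, lay above replicates 1 to 3 at 44.7, 38.5 and 37.5, with a ratio of 0.837. Replicate 4 was also the highest array for Tmem119 at 37 °C, at 92.1. Without pair 4 in the block fit, Tmem119 changed by -0.55 (adjusted p = 0.0263).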

How the results depend on the processing

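With temperature as the only term, 1 marker was lower and 0 higher. The count of lower markers was 0 with no filter or with the mean of probe sets, 2 with an intensity trend, 4 at an unadjusted p, 12 with the replicate block (1 higher), and 0 to 2 over the fits that left out an array (0 higher). With the block and without pair 1, 2, 3 or 4, the counts were 9, 12, 10 and 10 lower, each with 1 higher. No filter with the block gave 8 lower and 2 higher, P2ry12 being the added one, and median scaling with the block gave 12 lower and 2 higher, Cd14 being the added one. The median difference of -0.28 stayed below 0 in all 22 alternatives, from -0.46 to -0.080 with an array left out. The number of markers varying between pairs, 22, was 2 with no filter, 3 to 18 with a pair left out, and 18 to 28 under the other alternatives. Shares of all genes were counted for the main fits, the block with all pairs and unadjusted p. For the other alternatives they were not, so those counts of markers have no background beside them. With no filter both the adjustment and limma's pooled variance draw on 18193 genes, dim ones among them, and with a pair left out fewer arrays remain. What part each has in these counts was not tested. Of the 28 log2 differences, 17 kept their sign throughout and 11 changed it in at least 1 alternative, none of them called. By processing, Fcer1g was 0.082, Trem2 0.045 and P2ry6 0.049 with median scaling, and Ptprc was -0.004 with the mean of probe sets and -0.007 with array weights. With an array or pair left out the ranges were -0.43 to 0.093 for Cx3cr1, -0.035 to 0.33 for Csf1r, -0.37 to 0.005 for Itgam, -0.26 to 0.09 for Tyrobp, -0.17 to 0.18 for Fcer1g, -0.24 to 0.30 for Trem2, -0.18 to 0.26 for Ptprc, -0.039 to 0.33 for Spi1, -0.29 to 0.092 for Cd53, -0.22 to 0.16 for P2ry6 and -0.11 to 0.29 for Itgb2. With the replicate block and 1 pair left out, Fcer1g was 0.037, 0.032 and 0.015 (pairs 1, 3 and 4), Trem2 0.233 (pair 3), P2ry6 0.022 (pair 4), Ptprc -0.063 and -0.001 and Itgb2 -0.021 and -0.009 (pairs 2 and 4). The block added 11 lower calls and 1 higher call to Fcrls and changed no other call of the markers. Depth cannot be given for arrays, and for dim markers the floor limits what a difference can show.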
